A study of Mus musculus with 8 samples.

Results

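Bipolar cells carry the signal of rods and cones to the inner retina, and 10 genes known for their expression in these cells were read from bulk retinal RNA of mice at postnatal day 5. The genes are Vsx1, Grm6, Trpm1, Prkca, Cabp5, Pcp2, Lhx4, Bhlhe23, Gng13 and Scgn. They were taken by symbol from the count table, and all 10 were present among its 16109 genes. The series compares 4 retinal libraries labelled C3 KO with 4 labelled WT, all from C57BL/6 mice of the same age with the hyaloid vessels dissected away. C3 is the central complement protein. The labels give no construct for the C3 allele, no sex and no number of animals per library, so p-values measure the spread between these libraries.

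The label of the knockout went against its own gene. C3 stood at 87.5, 82.5, 87.5 and 80.6 CPM (read counts scaled to a common library total with TMM factors) in C3 KO-labelled libraries, against 2.67, 2.62, 1.75 and 3.32 CPM in WT-labelled libraries. Each direction below therefore compares libraries labelled C3 KO against libraries labelled WT, whatever genotype they held. Y-linked reads also followed the labels in 7 of 8 libraries, although edgeR called none of the 4 genes and limma-voom called all 4: the sum of Ddx3y, Eif2s3y, Kdm5d and Uty was 299 to 353 CPM in all 4 C3 KO-labelled libraries, and 1.79, 20.2, 303 and 14.8 CPM in WT-labelled libraries, replicates 1 to 4. Xist, the RNA that silences an X chromosome in female cells, stood at 1.73, 2.65, 2.48 and 1.48 CPM in C3 KO-labelled libraries, against 2441, 2369, 295 and 2195 CPM in WT-labelled libraries, and was called lower (edgeR adjusted p = 0.0022). WT-labelled replicate 3 thus stood apart from its group, with the lowest Xist level and the highest Y-linked sum of that label. Replicates 2 and 4 of that label held Y-linked reads too, at the lower sums of 20.2 and 14.8 CPM. Total counts were 17621087 to 19493979 reads in C3 KO-labelled libraries and 16503564 to 19608824 reads in WT-labelled libraries. Of 15850 genes tested with edgeR's quasi-likelihood test, 14.3% were called different at a Benjamini-Hochberg adjusted p below 0.05, 8.33% higher and 5.98% lower under the C3 KO label.

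Bipolar cells are among the last neurons born in the mouse retina, and much of their maturation follows birth of the animal. ON bipolar cells respond to light through mGluR6, a glutamate receptor encoded by Grm6. In the dark, glutamate from photoreceptors activates mGluR6, a G protein of the Go class keeps the cation channel TRPM1 closed, and light reopens it. OFF bipolar cells use ionotropic glutamate receptors instead. Homeobox and basic helix-loop-helix factors, among them Vsx1, Lhx4 and Bhlhe23, act in setting up the bipolar types.

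Promoter windows are shown for Vsx1 and Trpm1, the members of lowest and highest fold change, for the receptor gene Grm6 of the same cascade as Trpm1, and for Cabp5, which was not called and holds a motif that Trpm1 shares. Each sequence is the 250 bases before a RefSeq start on GRCm38.p6, written 5′ to 3′ on the gene's strand. Capitals mark 6-base motifs searched on both strands: TAATCC, bound by Otx2 and Crx; TAATTA, a core of many homeodomains; CAGATG and CATATG, E-boxes of the proneural type; and CACGTG and CATGTG, E-boxes of the type that Mitf binds.
Vsx1 (chr2:150689138-150689387, minus strand): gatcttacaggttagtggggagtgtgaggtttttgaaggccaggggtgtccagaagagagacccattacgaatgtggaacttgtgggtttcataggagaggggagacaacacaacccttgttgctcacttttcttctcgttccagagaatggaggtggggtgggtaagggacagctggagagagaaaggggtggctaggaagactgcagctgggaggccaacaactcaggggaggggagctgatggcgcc
Grm6 (chr11:50850435-50850684, plus strand): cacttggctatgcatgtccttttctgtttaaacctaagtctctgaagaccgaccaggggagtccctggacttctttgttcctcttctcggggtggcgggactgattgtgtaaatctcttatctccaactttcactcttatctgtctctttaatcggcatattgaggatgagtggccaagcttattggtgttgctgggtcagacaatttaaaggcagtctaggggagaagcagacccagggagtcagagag
Cabp5 (chr7:13397905-13398154, plus strand): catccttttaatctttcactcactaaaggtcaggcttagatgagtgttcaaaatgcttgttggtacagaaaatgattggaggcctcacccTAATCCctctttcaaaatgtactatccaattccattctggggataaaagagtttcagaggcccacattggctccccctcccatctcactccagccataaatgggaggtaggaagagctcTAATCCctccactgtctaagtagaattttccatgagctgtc
Trpm1, upstream start (chr7:64153585-64153834, plus strand): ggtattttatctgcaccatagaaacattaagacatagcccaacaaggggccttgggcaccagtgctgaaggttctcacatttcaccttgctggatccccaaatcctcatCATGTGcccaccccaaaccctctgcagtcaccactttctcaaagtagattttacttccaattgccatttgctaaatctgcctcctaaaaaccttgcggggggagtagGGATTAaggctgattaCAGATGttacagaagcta
Trpm1, downstream start (chr7:64185209-64185458, plus strand): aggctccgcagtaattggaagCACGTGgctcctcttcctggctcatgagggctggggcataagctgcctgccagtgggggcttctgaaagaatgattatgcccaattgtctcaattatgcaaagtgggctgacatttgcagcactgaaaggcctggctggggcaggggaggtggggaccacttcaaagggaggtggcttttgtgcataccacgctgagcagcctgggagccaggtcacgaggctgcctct
All 10 members matched the RefSeq table, with 15 starts between them. TAATCC stood in the windows of 2 members, with 2 copies at Cabp5 and 1 copy on the other strand at the upstream start of Trpm1, against 6.25% of 32851 windows. The upstream Trpm1 window also held CAGATG, found in 14.4% of all windows, and CATGTG, found in 12.3%. The downstream Trpm1 window held CACGTG, found in 6.02%. None of these 6 motifs was in the windows of Vsx1, Lhx4, Bhlhe23, Scgn, Grm6, Prkca and Gng13. Of the other members Pcp2 had 1 CAGATG, shared by the overlapping windows of 2 starts, and CATGTG at 1 start. TAATTA stood at 1 start of Pcp2, against 4.84% of all windows, and CATATG at no member, against 3.46%. A motif match is a description of letters, and the gene counts do not tell which Trpm1 start was used.

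Of the 10 members, 4 were called lower and 1 higher in C3 KO-labelled libraries, against 5.98% and 8.33% of all tested genes. The transcription factor genes Vsx1, Lhx4 and Bhlhe23 and the calcium-binding protein gene Scgn fell, the channel gene Trpm1 rose, and Grm6, Prkca, Cabp5, Pcp2 and Gng13 did not pass. The median log2 fold change was -0.29 over the members and 0.0044 over all tested genes. Vsx1, Bhlhe23 and Scgn were each called at a log2 fold change of -1 or less, as were 30 of all tested genes, or 0.189%. That size was chosen after the values were seen. In bulk tissue, fewer cells of a type and less RNA per cell cannot be told apart.

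**Figure D1:**
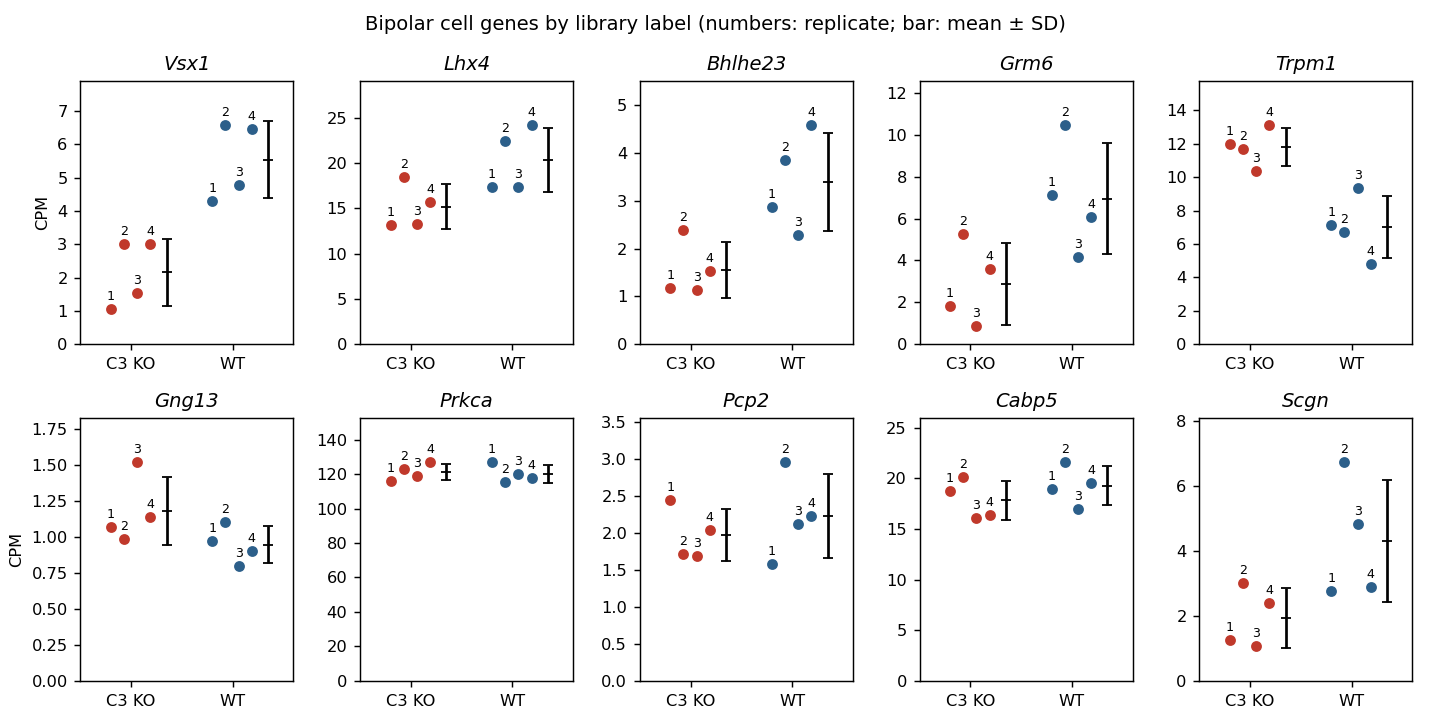
CPM of the 10 members in each library, with C3 KO-labelled libraries in red and WT-labelled libraries in blue, numbers for the replicate and the mean ± SD beside each group. Vsx1 and Trpm1 are the members whose groups do not overlap, and Prkca lies between 115 and 127 CPM in all 8 libraries.

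Vsx1, a homeobox factor needed for the maturation of some cone bipolar types, had the lowest fold change of the members. It stood at 1.07, 3.02, 1.52 and 3.01 CPM in C3 KO-labelled libraries, against 4.31, 6.58, 4.78 and 6.46 CPM in WT-labelled libraries. Every C3 KO-labelled library lay below every WT-labelled library. The means were 2.16 ± 1.01 CPM in C3 KO-labelled libraries and 5.53 ± 1.16 CPM in WT-labelled libraries (SD, n = 4 each), and the log2 fold change was -1.36 ± 0.26 (SE, edgeR adjusted p = 0.00224).

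Bhlhe23, a basic helix-loop-helix factor needed for rod bipolar cells to mature, stood at 1.17, 2.39, 1.13 and 1.53 CPM in C3 KO-labelled libraries and at 2.87, 3.84, 2.29 and 4.59 CPM in WT-labelled libraries. The groups overlapped by C3 KO-labelled replicate 2, which lay just above WT-labelled replicate 3. The log2 fold change was -1.11 ± 0.27 (SE, edgeR adjusted p = 0.00827). These are 20 to 46 reads in C3 KO-labelled libraries and 43 to 76 reads in WT-labelled libraries.

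Lhx4, a LIM homeobox factor of developing cones and cone bipolar cells in the mouse, changed by less. It stood at 13.2, 18.5, 13.3 and 15.7 CPM in C3 KO-labelled libraries, against 17.4, 22.5, 17.4 and 24.2 CPM in WT-labelled libraries. C3 KO-labelled replicate 2 was again the library that overlapped the other group. The log2 fold change was -0.42 ± 0.13 (SE, edgeR adjusted p = 0.0312).

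Scgn, which encodes the calcium-binding protein secretagogin of cone bipolar cells, stood at 1.27, 3.02, 1.07 and 2.39 CPM in C3 KO-labelled libraries and at 2.77, 6.75, 4.84 and 2.90 CPM in WT-labelled libraries. It was scattered in both groups, and C3 KO-labelled replicate 2 lay above WT-labelled replicates 1 and 4. The log2 fold change was -1.15 ± 0.35 (SE, edgeR adjusted p = 0.0392).

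The calls of Lhx4 and Scgn each held in only 3 of the 8 fits that left out 1 library, while those of Vsx1, Bhlhe23 and Trpm1 held in all 8. Over those fits the log2 fold change ran from -0.53 to -0.33 for Lhx4 and from -1.45 to -0.85 for Scgn. The number of all tested genes called also moved, to between 1311 and 2540, against 2269 with all 8 libraries. The Lhx4 call was lost without C3 KO-labelled replicate 1, 3 or 4 or WT-labelled replicate 2 or 4, at edgeR adjusted p-values of 0.0971, 0.0937, 0.0675, 0.0918 and 0.0940. The Scgn call was lost without C3 KO-labelled replicate 1, 3 or 4 or WT-labelled replicate 2 or 3, at 0.104, 0.0831, 0.0654, 0.0928 and 0.0850 in the same test. The number of members called was 3 without C3 KO-labelled replicate 1, 3 or 4 or WT-labelled replicate 2. With the log2 CPM of Y-linked genes as a covariate, none of the 10 members was called by edgeR and 4 had an unadjusted p below 0.05, and the log2 fold changes of Vsx1, Bhlhe23, Lhx4, Scgn and Trpm1 were -1.37, -0.87, -0.38, -1.53 and 0.49. Their adjusted p-values in that edgeR fit were 0.0581, 0.264, 0.318, 0.0847 and 0.212, and 530 of all tested genes were called in it. Among WT-labelled libraries only replicate 3 had Y-linked levels like those under the C3 KO label, and its Xist level was not like theirs, so sex-linked expression and label cannot be told apart.

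Grm6, the receptor itself, varied most of the members among C3 KO-labelled libraries. It stood at 1.83, 5.26, 0.846 and 3.58 CPM in C3 KO-labelled libraries and at 7.12, 10.5, 4.15 and 6.10 CPM in WT-labelled libraries. C3 KO-labelled replicate 2 lay above WT-labelled replicate 3, and the libraries labelled C3 KO spanned a 6.21-fold range. The log2 fold change was -1.26 ± 0.52 (SE) with a 95% interval of -2.50 to -0.03, and the gene was not called, at an edgeR adjusted p = 0.167. Without C3 KO-labelled replicate 2 it was called at an adjusted p = 0.0363, with a log2 fold change of -1.74. It was also called by limma-voom (adjusted p = 0.0137) and by edgeR with non-robust dispersion (adjusted p = 0.0194).

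Trpm1, the channel at the end of the mGluR6 cascade, went the other way. It stood at 11.97, 11.7, 10.4 and 13.1 CPM in C3 KO-labelled libraries, against 7.12, 6.69, 9.36 and 4.83 CPM in WT-labelled libraries. The groups did not overlap, and WT-labelled replicate 3 came closest to the other group. The log2 fold change was 0.75 ± 0.15 (SE, edgeR adjusted p = 0.00212). Over all 10 members 1 did not overlap downward and 1 upward, against 7.72% and 9.65% of all tested genes.

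Melanocytes also make Trpm1, so the genes of pigment cells are given beside it. All 16 listed genes of pigment epithelium and melanocytes were detected and 15 were tested. Of these 12 were called higher and 0 lower, against 8.33% and 5.98% of all tested genes, and the median log2 fold change was 1.16. None of the 16 was at 0 in either group. Their summed level was 313, 323, 309 and 339 CPM in C3 KO-labelled libraries, against 171, 131, 135 and 112 CPM in WT-labelled libraries. Tyr, which starts melanin synthesis, stood at 11.6 ± 0.910 CPM in C3 KO-labelled libraries and 4.14 ± 0.247 CPM in WT-labelled libraries (SD, n = 4 each), a 2.80-fold difference, against 1.68-fold for Trpm1. Mitf, the factor that drives melanocyte genes, was 1.62-fold higher, with an edgeR adjusted p = 0.00338. Within the C3 KO label the pigment sum and Trpm1 were both highest in replicate 4 and lowest in replicate 3. Within the WT label both were lowest in replicate 4, while the sum was highest in replicate 1 and Trpm1 in replicate 3. The part of pigment cells in the Trpm1 difference was not tested.

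**Figure D2:**
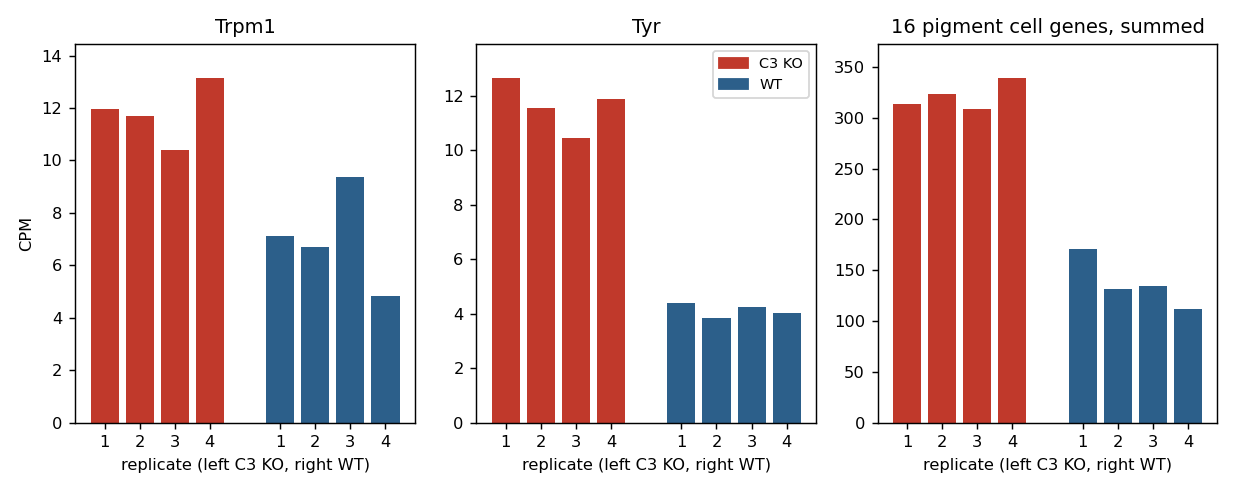
CPM of Trpm1, of Tyr and of the summed 16 pigment cell genes in each library, with C3 KO-labelled libraries in red and WT-labelled libraries in blue. All 3 are higher in every C3 KO-labelled library than in any WT-labelled library, with the sum at 309 to 339 CPM against 112 to 171 CPM.

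The other members of the G protein and signalling machinery did not pass. Gng13, a G protein gamma subunit of ON bipolar cells, stood at 1.07, 0.989, 1.52 and 1.14 CPM in C3 KO-labelled libraries and at 0.974, 1.11, 0.797 and 0.905 CPM in WT-labelled libraries. These are 15 to 27 reads per library, and the 95% interval of the log2 fold change ran from -0.33 to 0.96. Pcp2, a G protein modulator of rod bipolar and other ON bipolar cells, stood at 1.98 ± 0.352 CPM in C3 KO-labelled libraries and 2.23 ± 0.568 CPM in WT-labelled libraries (SD, n = 4 each), with an interval of -0.68 to 0.35. Exons of Gng13 and Pcp2 overlap those of Chtf18 and Pet100 on the other strand in the GENCODE annotation. Grm6, Trpm1 and Prkca have such partners too, namely Gm12660, Gm44722 and Apoh, and exons of Bhlhe23 overlap those of Gm14343 on the same strand. Of these partners only Chtf18 was itself among the counted genes. The libraries were directional, but no source used here says if strand was used in counting. Whether reads of the partners entered the counts of these genes was not tested.

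Prkca, the protein kinase C isoform by which rod bipolar cells are commonly stained, was the most even member. It stood at 116, 123, 119 and 127 CPM in C3 KO-labelled libraries and at 127, 115, 120 and 118 CPM in WT-labelled libraries. The log2 fold change was 0.01 ± 0.05 (SE) with a 95% interval of -0.09 to 0.11. Cabp5, a calcium-binding protein of rod bipolar and some cone bipolar cells, stood at 18.7, 20.1, 16.1 and 16.4 CPM in C3 KO-labelled libraries and at 18.9, 21.7, 17.0 and 19.6 CPM in WT-labelled libraries. Its log2 fold change was -0.11 ± 0.10 (SE) with an interval of -0.31 to 0.10. Prkca is also made by many cells other than bipolar cells.

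Levels between genes were compared per length, in the RPKM values that the authors deposited on a log2 scale. Prkca was highest under both labels, at 13.4 ± 0.511 RPKM in C3 KO-labelled libraries and 13.4 ± 0.553 RPKM in WT-labelled libraries (SD, n = 4 each). Lhx4 followed at 8.25 ± 1.38 RPKM in C3 KO-labelled libraries and 11.1 ± 1.92 RPKM in WT-labelled libraries. Cabp5 stood at 7.08 ± 0.807 RPKM in C3 KO-labelled libraries and 7.70 ± 0.756 RPKM in WT-labelled libraries. Lhx4 and Cabp5 overlapped in C3 KO-labelled libraries but not in WT-labelled libraries. All other members had means under 3 RPKM. Scgn led these in WT-labelled libraries, at 2.93 ± 1.24 RPKM, and Vsx1, Bhlhe23, Gng13, Grm6 and Pcp2 lay between 1.28 and 1.49 RPKM with overlapping ranges. Trpm1 was lowest there, at 0.627 ± 0.164 RPKM. In the libraries labelled C3 KO the lowest were Bhlhe23, Vsx1 and Grm6, at 0.660 ± 0.236, 0.596 ± 0.266 and 0.551 ± 0.360 RPKM, and Trpm1 stood above them at 1.04 ± 0.0995 RPKM.

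Vsx1, Grm6, Lhx4, Bhlhe23 and Scgn were the 5 members of lowest log2 fold change. They were picked by that value, so their lower levels under the C3 KO label follow from the choice. They also shared part of an order of libraries, which no test was applied to. In the libraries labelled C3 KO, replicate 2 was highest and replicate 4 next in all 5 genes, and replicate 3 or 1 was lowest. Cabp5 and Pcp2, which also had lower means under that label, did not share this. There replicates 2 and 1 were the highest for Cabp5, and replicates 1 and 4 for Pcp2. In the libraries labelled WT, replicate 2 was among the upper pair in all 5, and the rest of the order differed between genes. C3 KO-labelled replicate 2 reached above the lowest WT-labelled library in 4 of the 5 genes, all but Vsx1, and C3 KO-labelled replicates 1, 3 and 4 in none. The summed level of the 5 was 18.5, 32.2, 17.9 and 26.3 CPM in C3 KO-labelled libraries, against 34.4, 50.1, 33.4 and 44.2 CPM in WT-labelled libraries. The 10 rod genes listed summed to 7503, 8255, 6856 and 8065 CPM in C3 KO-labelled libraries, with replicates 2 and 4 highest there as well. In the libraries labelled WT the rod sum was 8646, 9123, 8090 and 7739 CPM, where replicate 4 was lowest. Of the 10 rod genes edgeR called 2 lower and none higher, against 5.98% and 8.33% of all tested genes. At an unadjusted p below 0.05 in edgeR, 6 rod genes were lower and 0 higher, and all 10 had negative log2 fold changes. DESeq2 called 5 lower and limma-voom 4, with 0 higher in both, and the part of rod content in the bipolar values was not tested.

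**Figure D3:**
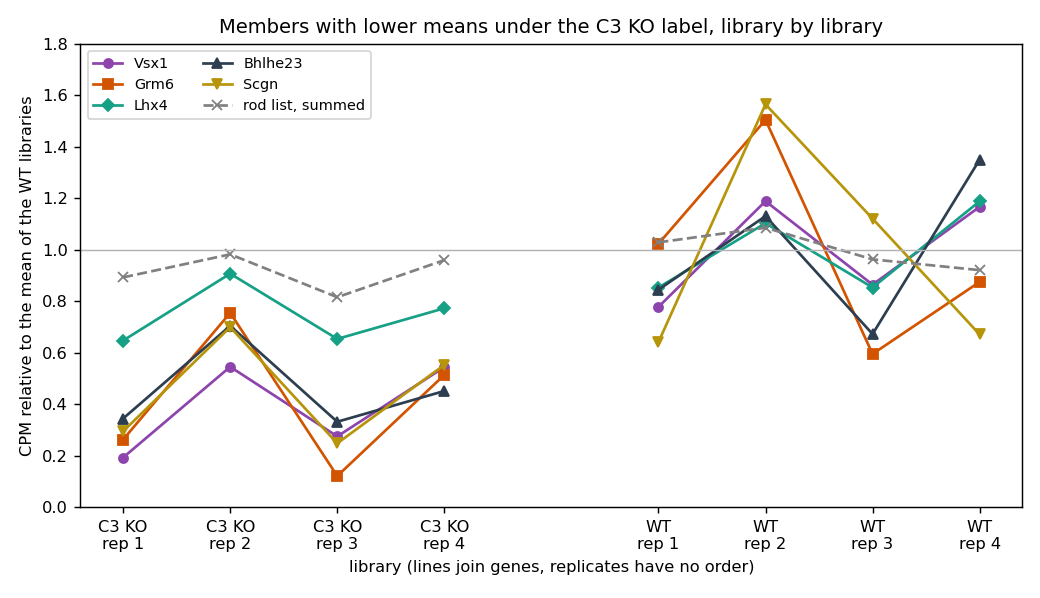
CPM of the 5 members of lowest log2 fold change, and of the summed rod list, divided by the mean of the WT-labelled libraries. Cabp5 and Pcp2, which also had lower means under the C3 KO label, are not shown. In the libraries labelled C3 KO all 5 genes are highest in replicate 2 and next highest in replicate 4. Lines join the values of a gene and carry no order.

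Transcription factors of the bipolar lineage outside the members were called in both directions, 3 of 11 lower and 1 higher, with a median log2 fold change of -0.04. Among all tested genes 5.98% were called lower and 8.33% higher. Neurod4, a proneural factor of bipolar and photoreceptor precursors, fell to 316 ± 45.1 CPM in C3 KO-labelled libraries, against 503 ± 75.8 CPM in WT-labelled libraries (SD, n = 4 each, edgeR adjusted p = 0.0270). Its libraries stood at 346, 319, 349 and 251 CPM under the C3 KO label and at 399, 529, 502 and 579 CPM under the WT label. Lhx3, a LIM homeobox relative of Lhx4, had a log2 fold change of -0.74 ± 0.21 and the zinc finger factor St18 one of -0.52 ± 0.13 (SE, edgeR adjusted p = 0.0198 and 0.00672). Groups did not overlap for these 3 genes, and 1 of the 11 factors did not overlap upward. Among all tested genes 7.72% did not overlap downward and 9.65% upward.

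Isl1, a LIM homeobox factor of ON bipolar cells that ganglion and amacrine cells also make, rose to 95.7 ± 5.14 CPM in C3 KO-labelled libraries, against 75.3 ± 8.22 CPM in WT-labelled libraries (SD, n = 4 each, edgeR adjusted p = 0.00124). Otx2, which bipolar cells and photoreceptors require, had a log2 fold change of -0.14 ± 0.06 and did not pass (SE, edgeR adjusted p = 0.133). The other 6 factors, Irx5, Irx6, Bhlhe22, Prdm8, Fezf2 and Zfhx4, had log2 fold changes between -0.07 and 0.11 and did not pass. Isl1 and St18 kept their calls in all 8 fits that left out 1 library. Neurod4 lost its call without C3 KO-labelled replicate 2 or WT-labelled replicate 2, 3 or 4, at edgeR adjusted p-values up to 0.0865, and Lhx3 without C3 KO-labelled replicate 1 or 3 or WT-labelled replicate 1 or 2 (up to 0.0656). The number of these factors called was 2 without WT-labelled replicate 2.

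Genes listed as partners of mGluR6 were called in both directions, 2 higher and 3 lower among 10 detected of 11 listed. Over all tested genes 8.33% were called higher and 5.98% lower. The median log2 fold change of the partners was -0.13. Their means in C3 KO-labelled libraries ran from 2.17 CPM for Nyx to 538 CPM for Gnao1, against 2.88 CPM for Grm6. Counts of whole retina do not tell which cells made these RNAs, and the part of cells other than ON bipolar cells was not tested. Rgs11 and Rgs7, which speed the shut-off of the Go protein in ON bipolar cells, rose. Rgs11 stood at 18.0, 17.9, 18.7 and 19.6 CPM in C3 KO-labelled libraries, against 12.1, 9.14, 10.9 and 8.63 CPM in WT-labelled libraries, which is 0.86 ± 0.11 higher on the log2 scale (SE, edgeR adjusted p = 2.02e-05). Rgs7 stood at 47.1 ± 4.21 CPM in C3 KO-labelled libraries and 35.4 ± 2.02 CPM in WT-labelled libraries (SD, n = 4 each, edgeR adjusted p = 0.000416). Exons of Rgs11 overlap Arhgdig on the other strand, and Arhgdig itself had a log2 fold change of 0.19 and was not called.

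Rgs9bp, a membrane anchor of such regulators in photoreceptors and bipolar cells, fell by 0.31 ± 0.08 on the log2 scale (SE, edgeR adjusted p = 0.0118). The leucine-rich repeat genes Lrit2 and Lrit1 fell too, by 0.28 and 0.22 on the log2 scale (edgeR adjusted p = 0.00566 and 0.0226). Lrit1 lost its call without C3 KO-labelled replicate 1, 3 or 4 or WT-labelled replicate 2, at edgeR adjusted p-values up to 0.0750. The Go alpha subunit gene Gnao1 and the beta subunit genes Gnb3 and Gnb5 had log2 fold changes of 0.16, 0.07 and -0.04 and did not pass. Gpr179 and Nyx, which hold the complex together at the dendritic tip, had log2 fold changes of -0.26 and -0.26 and did not pass either.

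Of 22 detected genes listed for bipolar subtypes, not each particular to a single type, edgeR called 4 higher and none lower. Their median log2 fold change was 0.11. The shares over all tested genes were 8.33% higher and 5.98% lower. At an unadjusted p below 0.05, 7 were higher and 1 lower, and DESeq2 called 5 higher and 0 lower. Cpne9, a copine, stood at 23.1, 23.7, 27.3 and 26.0 CPM in C3 KO-labelled libraries, against 17.3, 15.0, 18.2 and 15.3 CPM in WT-labelled libraries, which is 0.60 ± 0.09 higher on the log2 scale (SE, edgeR adjusted p = 0.000116). The fibrillar collagen gene Col11a1 rose 1.40-fold, the transcription factor gene Sox6 1.22-fold and the protocadherin gene Pcdh17 1.21-fold, with edgeR adjusted p-values of 0.00702, 0.0112 and 0.0188. Other cells of the retina make these genes as well. Among genes used for OFF types, Grik1, a kainate receptor subunit, and Tacr3, a tachykinin receptor, had log2 fold changes of -0.24 and -0.17 and did not pass. Pcdh17 lost its call without C3 KO-labelled replicate 2 or 3 or WT-labelled replicate 2, and Sox6 without WT-labelled replicate 2, at edgeR adjusted p-values up to 0.0750 and 0.0513. Without WT-labelled replicate 2 the number called was 2.

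**Figure D4:**
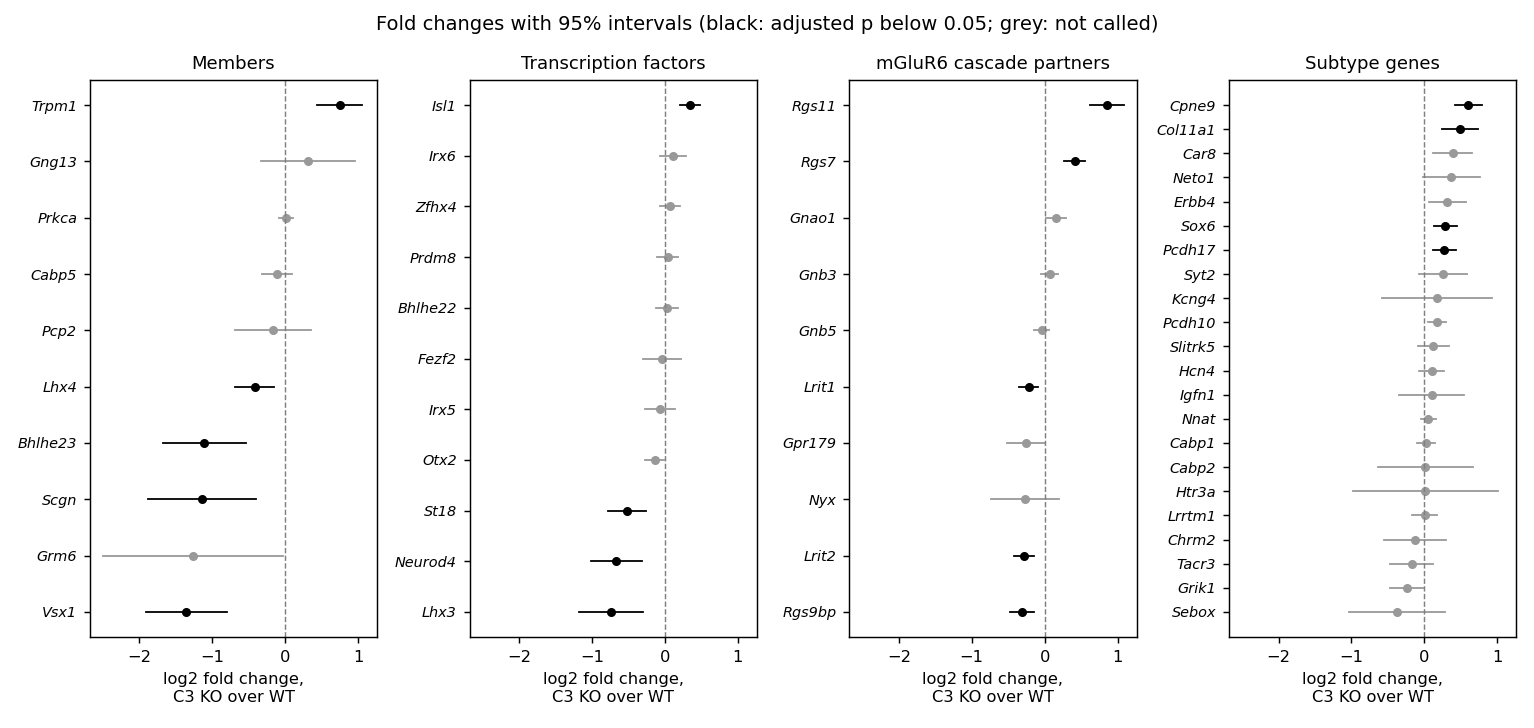
Log2 fold changes of C3 KO-labelled over WT-labelled libraries with 95% intervals for the members and the 3 further bipolar lists, black where called. The members span -1.36 for Vsx1 to 0.75 for Trpm1, while called subtype genes all lie above 0.

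Genes of other retinal cell types were called as well, and their part in the bipolar values was not tested. For comparison, edgeR called 8.33% of all tested genes higher and 5.98% lower. Of 9 listed progenitor genes 4 were called lower and 1 higher, with a median log2 fold change of -0.38, and 8 had negative log2 fold changes. DESeq2 and limma-voom each called 6 lower and 1 higher. Their summed levels were 1241 to 1589 CPM in C3 KO-labelled libraries and 1269 to 1598 CPM in WT-labelled libraries. Most of that sum was Ccnd1, the gene called higher, at means of 954 CPM in C3 KO-labelled libraries and 770 CPM in WT-labelled libraries. Of 9 ganglion cell genes 6 were called higher, with a median of 0.28 and sums of 2360 to 2756 CPM in C3 KO-labelled libraries and 1863 to 2470 CPM in WT-labelled libraries. All 8 cone genes had positive log2 fold changes. Of these edgeR and DESeq2 called none, limma-voom called 1 higher, and 2 had an unadjusted p below 0.05 in edgeR. Of 6 amacrine genes edgeR called 1 higher, while DESeq2 and limma-voom each called 1 higher and 1 lower. None of the 5 horizontal cell genes was called by edgeR or DESeq2, 1 was by limma-voom and 1 had an unadjusted p below 0.05 in edgeR, and 2 of 8 Mueller glia genes were called lower. The microglia and endothelial lists had 2 of 8 and 1 of 6 called higher, and all 5 red blood cell genes detected were called lower, with a median of -1.11.

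**Figure D5:**
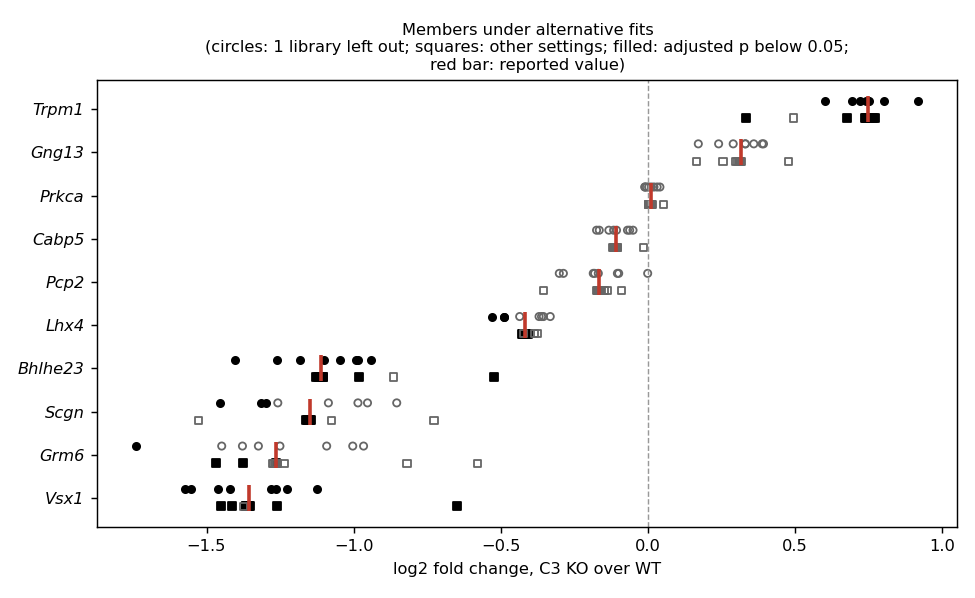
Log2 fold change of each member under 19 alternative fits, with circles for fits that left out 1 library, squares for other settings and filled marks for an adjusted p below 0.05. Vsx1, Bhlhe23 and Trpm1 are filled in 18 of 19 fits each, and Lhx4 and Scgn in 11 of 19.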

How the data were processed

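Poly(A) RNA of postnatal day 5 retinas was sequenced as directional NEBNext libraries, per the labels' protocols. The submitters' processing notes name STAR, HTSeq and the builds mm9 and NCBIM37, without versions. The authors deposited read counts per gene without normalization, and a table of log2 RPKM values. Those deposited log2 values equal the logarithm of the count plus 2 reads, scaled to library size, with a constant per gene and library, to within 0.0133. Table columns were matched to samples by the codes in the titles. No pair of libraries of a group agreed within sampling noise (chi-square per degree of freedom at least 3.71).

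Analysis used edgeR 4.0.16 under R 4.3.3. The expression filter of edgeR kept 15850 of 16109 genes, among them all 10 members, and left out 259. Libraries were scaled by TMM, and a quasi-likelihood test with robust dispersion compared 4 libraries labelled C3 KO with 4 labelled WT, without covariates. P-values were adjusted by Benjamini-Hochberg over all tested genes and called below 0.05. SE is the log2 fold change over the root of F. The procedure was tested on simulated counts. Alternatives used DESeq2 1.42.0, limma 3.58.1 and the settings in the closing section. Intervals over libraries include counting error and the spread between libraries, and for Vsx1, Grm6 and Scgn that spread was wide.

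The members and the gene lists were chosen with earlier results of these data known. One gene of the transcription factor list is not reported here and was left out of that list's counts. Named genes are all members, C3, called genes and those of smallest p in the bipolar lists, up to 4 of smallest p in the lists of other cell types, and sex-linked genes. Chtf18, Pet100, Gm12660, Gm44722, Apoh, Gm14343 and Arhgdig are named as overlapping genes. Ccnd1, Otx2, Grik1 and Tacr3 were named after their values were seen, as were further uncalled list members. Overlaps come from GENCODE M21 and promoters from RefSeq, both on GRCm38, and served for names and sequences only.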

Additional observations from a re-analysis of the deposited data

Results flagged for a closer look

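Single libraries that stood far from the other 3 of their label were searched among 67 genes of the members and cell type lists. These made 134 groups in all, of which chance alone would flag about 1 in 20. C3, Xist and the Y-linked genes were not among the 67. Xist in WT-labelled replicate 3, at 295 CPM against 2195 to 2441 CPM in the others of that label, was thus outside the search. So was the Y-linked sum of that library, at 303 CPM against 1.79 to 20.2 CPM. No member was among the 3 found. Fgf15, a growth factor of retinal progenitors, stood at 20.5 CPM in WT-labelled replicate 4, against 15.0 to 15.6 CPM in the other libraries labelled WT. Ttr, a carrier protein made by the pigment epithelium, stood at 36.2 CPM in WT-labelled replicate 1, against 25.6 to 26.0 CPM in the others of that label. Alas2, the first enzyme of heme synthesis in red blood cells, stood at 2.23 CPM in WT-labelled replicate 4, against 2.76 to 2.85 CPM in the others.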

How the results depend on the processing

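None of the same 67 genes reversed direction with a call in any of the alternatives run, and C3 and the sex-linked genes were not followed there. Over all genes 2269 were called, 1509 and 1502 with limma on log2(RPKM + 1) and log2(RPKM + 0.1), 530 with the Y-linked covariate, and 1311 to 2540 when 1 library was left out, lowest without C3 KO-labelled replicate 4. Of the members 5 were called, 3 on either RPKM scale, 0 with the Y-linked covariate (edgeR, where 4 members had an unadjusted p below 0.05), and 3 to 6 when 1 library was left out. The transcription factor count of 4 became 1 with the Y-linked covariate and 2 to 4 when 1 library was left out. The count of 5 mGluR6 partners became 3 on log2(RPKM + 1) and 2 with that covariate. The count of 4 subtype genes became 1 on either RPKM scale, 1 with that covariate and 2 to 6 when 1 library was left out. Lhx4 and Scgn also lost their calls on both RPKM scales, with adjusted p-values of 0.0719 and 0.0690 for Lhx4 and 0.0646 and 0.0616 for Scgn. RLE and upper quartile scaling, DESeq2, limma-voom, other expression filters and non-robust dispersion kept the count of members called within 1.5 times. The cause of these changes was not tested.

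Replicate numbers did not pair the libraries: deviations of same-numbered libraries correlated at -0.06 to 0.09, and 1 of 4 numbers correlated best with itself. With the replicate block 2400 genes were called, 6 of them members, Grm6 included (adjusted p = 9.27e-05), and Neurod4 was not (0.152). Depth limits Gng13 most, at 15 to 27 reads per library.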
